A study of Sus scrofa with 6 samples.

Results

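Interferon response genes were examined in the ventricular myocardium of minipigs with chronic pressure overload. The genes were the 9 named for this purpose, ISG15, MX1, MX2, IFIT1, IFIT3, RSAD2, STAT2, IRF1 and IRF7, and each was found in the deposited table by its symbol. Of the 9 genes, 8 had a row, out of 13288 genes in the table, and no row carried the name IFIT3. RNA came from 3 sham and 3 descending aortic constriction (DAC) animals, all male Tibetan minipigs whose tissue was taken at week 12 after surgery, and the sources used here give no age. The DAC group had sutures tightened around the descending aorta, which raises the pressure the ventricle works against, while the sham group had the chest opened without constriction. Minipigs are named here by the number in their label, sham replicates 1 to 3 and DAC replicates 4 to 6, and each column of the table holds 1 animal. The labels name ventricular tissue without saying which wall was taken.

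Interferons are secreted cytokines that put cells into an antiviral state. Type I interferons bind the receptor pair IFNAR1 and IFNAR2, whose kinases JAK1 and TYK2 phosphorylate STAT2. In a complex with IRF9, STAT2 switches on a shared set of interferon-stimulated genes, while type II interferon, which has a receptor of its own, raises IRF1. Among the genes studied here, STAT2, IRF1 and IRF7 are transcription factors of the response. The others are its products: ISG15 is a ubiquitin-like protein that is attached to other proteins, MX1 and MX2 are dynamin-like GTPases that block viruses, IFIT1 binds foreign RNA and RSAD2 (viperin) makes an antiviral nucleotide. In the heart these genes are known from viral myocarditis and from the response to nucleic acids released by injured cells.

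Values are FPKM, fragments scaled to transcript length and to how many fragments mapped in the sample. How many reads lie behind a value is unknown, so the spread between minipigs is the error given. The test was limma's moderated test on log2(FPKM + 1), run on the 11029 genes that reached 1 FPKM in 3 or more samples. The study's threshold, an unadjusted P under 0.05, defines the differentially expressed genes (DEGs) below, and adjusted P values are from limma with the Benjamini-Hochberg method over all genes tested. By this rule 939 genes were DEGs, 8.51% of those tested, and 61.9% of them were lower in the DAC group. With median scaling that share was 51.5%, with quantile normalization 52.9%, and with the mitochondrial transcripts removed 44.8%. No gene reached an adjusted P under 0.05 in limma. A fold change on the log2(FPKM + 1) scale understates the change of genes at this level. The summed FPKM of 8 cardiomyocyte markers was between 15500 and 18600 in all samples. P values set the difference between groups against the spread between the 3 animals within each group. In limma, the variance of each gene is drawn towards the trend over all genes tested.

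The interferon response genes did not move one way in the DAC myocardium. MX2 and STAT2 were lower, with DAC means that were 0.511 and 0.523 times the sham mean FPKM, and both were DEGs. The other 6 genes were not DEGs, and among all 8 the DAC mean was the higher one in 4 and the lower one in 4. Thus 2 of 8 genes were DEGs, both lower in the DAC group, where 5.27% of all genes tested were DEGs with a lower mean. The median log2 fold change of the 8 genes was -0.07, against -0.016 over all genes tested. No adjusted P of the 8 genes was under 0.561. All 8 genes had more than 1 FPKM in every sample, so none passed the filter through a single group.

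**Figure D1:**
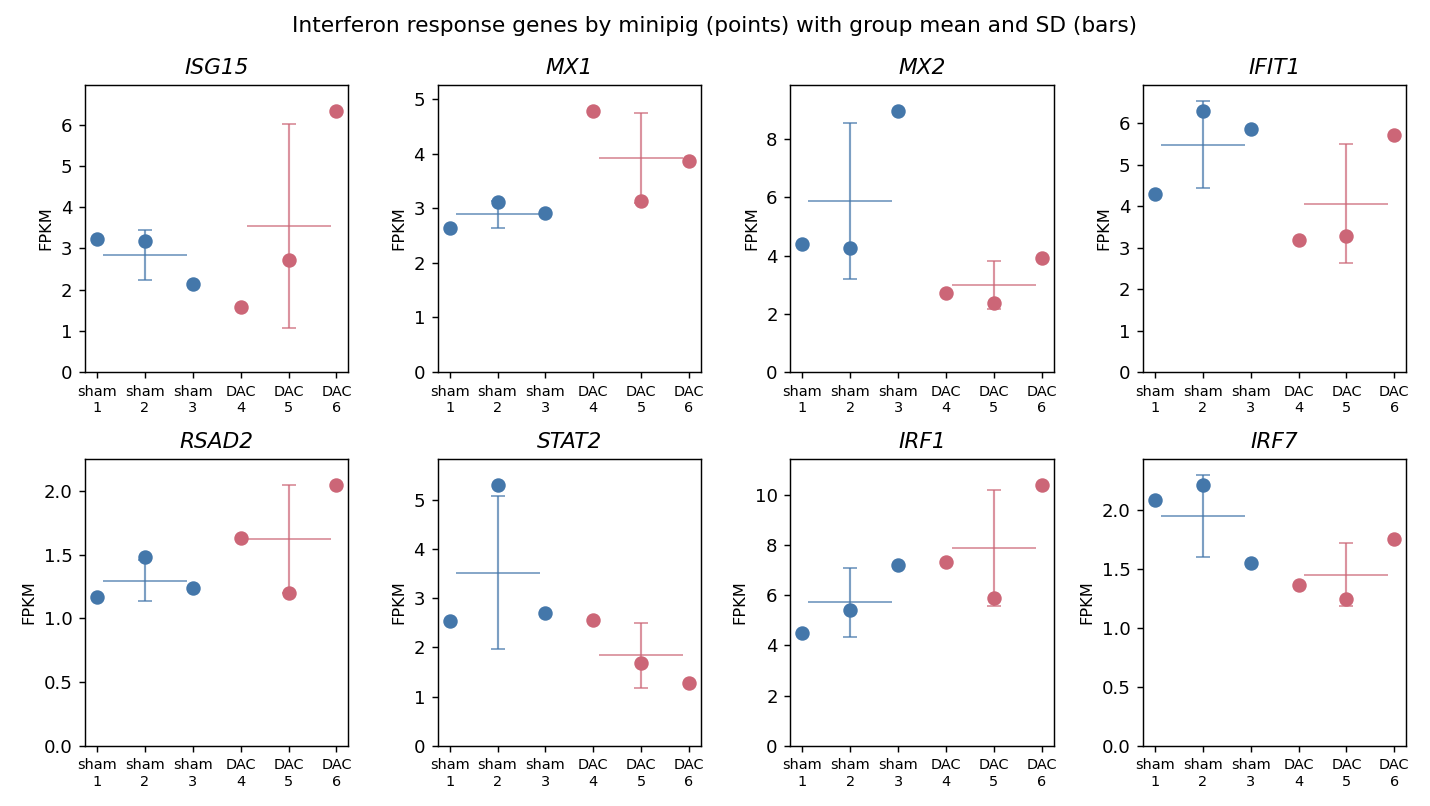
FPKM of the 8 interferon response genes in each minipig, with the vertical axis from 0 in each panel. Points are animals (blue sham, red DAC), the long horizontal bars are group means and the vertical bars are SD (n = 3). The DAC points of MX2 lie under all sham points, whereas ISG15 has its lowest and its highest value in the DAC group.

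Of the transcription factors, STAT2 (ENSSSCG00000000396, chromosome 5 from 21733035 to 21751354, susScr11) carries the signal of the type I interferon receptor into the nucleus. STAT2 was at 2.54, 5.31 and 2.71 FPKM in sham replicates 1 to 3 and at 2.56, 1.69 and 1.27 FPKM in DAC replicates 4 to 6. Sham replicate 2 stood above the rest, and the groups overlapped, since DAC replicate 4 lay above sham replicate 1. The sham mean was 3.52 ± 1.55 FPKM and the DAC mean 1.84 ± 0.662 FPKM (SD, n = 3 each). STAT2 was a DEG at -0.64 on the log2 scale (standard error 0.26, P = 0.0437 and adjusted P = 0.584 from limma, exact two-sided permutation P = 0.20). Without sham replicate 2, the log2 fold change was -0.38 and STAT2 was no longer a DEG. The call was also lost without DAC replicate 5 (-0.62) or DAC replicate 6 (-0.49), with the variance of each gene on its own, with median scaling (-0.62) and with the mitochondrial transcripts removed (-0.61).

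The STAT2 row shares sequence with that of a neighbour. In the table, PAN2, which encodes a subunit of a deadenylase, spans 21712247 to 21748950 on the same strand, and 15916 bases belong to both rows. In RefSeq (Sscrofa11.1), PAN2 ends at 21730528, before STAT2 begins. PAN2 was at 5.87, 2.77 and 5.23 FPKM in sham replicates 1 to 3 and at 5.23, 5.48 and 5.53 FPKM in the DAC samples. The sham replicate with the highest STAT2 was therefore the one with the lowest PAN2. The sum of both rows was 8.41, 8.08 and 7.94 FPKM in the sham samples and 7.79, 7.17 and 6.79 FPKM in the DAC samples, so the outlying animal was no longer apart. The log2 fold change was -0.15 ± 0.10 (standard error) for the sum, with a limma adjusted P of 0.693, and its groups did not overlap (exact two-sided permutation P = 0.10, the smallest that 3 against 3 animals allow). This sum was chosen after seeing the data, and how reads in the shared stretch were assigned is not given in the sources used here. Each FPKM is scaled to the length of its own row, so the sum is not the level of a joined gene. Whether reads moved between the rows was not tested.

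**Figure D2:**
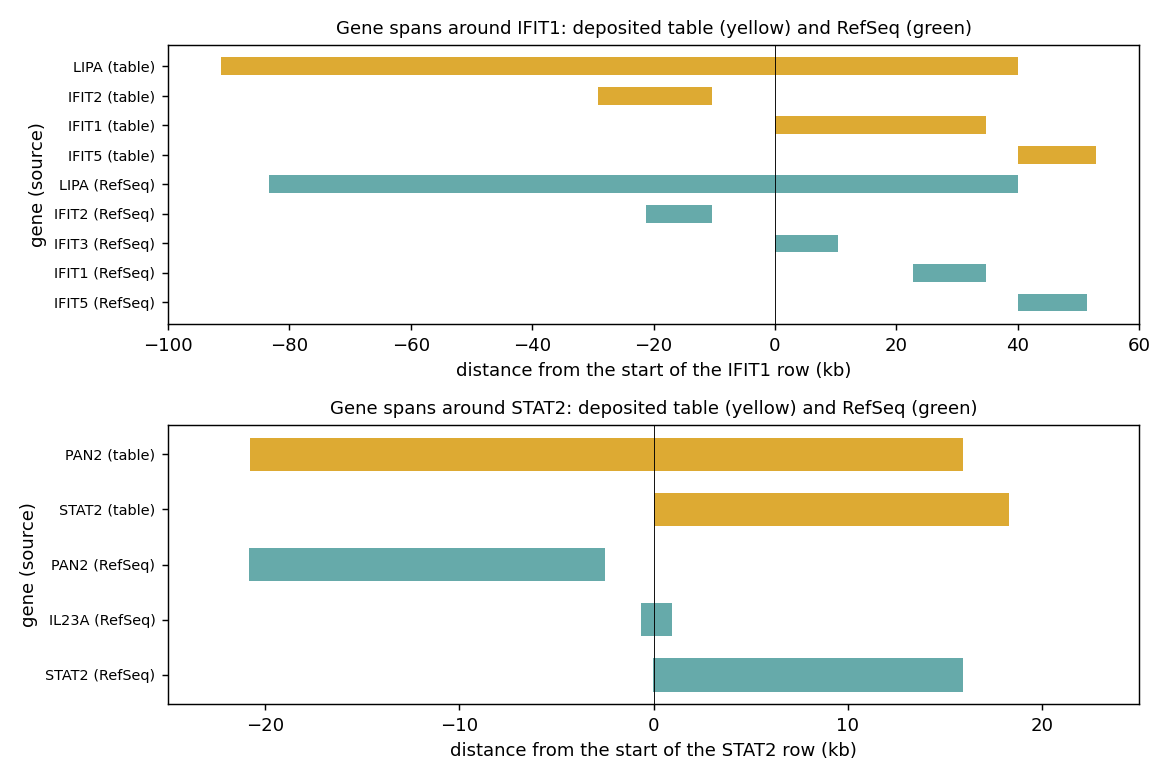
Spans of gene models around the IFIT1 row (top) and the STAT2 row (bottom), as distance in kb from the start of that row, in the deposited table (yellow) and in RefSeq (green). The IFIT1 row of the table covers both IFIT3 and IFIT1 of RefSeq, and the PAN2 row of the table runs across most of STAT2 while PAN2 of RefSeq does not reach it.

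IRF1 (ENSSSCG00000014277, chromosome 2 from 134776134 to 134783646) is a factor that type II interferon induces, though not a measure of that interferon alone. It was at 4.51, 5.42 and 7.20 FPKM in sham replicates 1 to 3 and at 7.34, 5.90 and 10.4 FPKM in DAC replicates 4 to 6. DAC replicate 6 was the highest, and DAC replicate 5 lay among the sham values. The log2 fold change of IRF1 was 0.39 (standard error 0.22, 95% interval from -0.13 to 0.91, adjusted P = 0.645 from limma). Without DAC replicate 5, it was 0.56 and IRF1 was a DEG. The RAD50 row lies across all 7513 bases of IRF1 on the other strand, and RAD50 was at 5.39 ± 0.280 FPKM in the sham group and 5.97 ± 0.589 FPKM in the DAC group (SD, n = 3).

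IRF7 (ENSSSCG00000012853, chromosome 2 from 371606 to 375381) amplifies the production of type I interferon. It was at 2.08, 2.21 and 1.55 FPKM in the sham samples and at 1.36, 1.24 and 1.75 FPKM in the DAC samples. Only DAC replicate 6 lay above the lowest sham value. The log2 fold change of IRF7 was -0.26 (standard error 0.14, 95% interval from -0.60 to 0.07, adjusted P = 0.642 from limma). Without sham replicate 3, it was -0.37 and IRF7 was a DEG. The IRF7 row shares 88 bases with PHRF1 on the other strand, whose level was 16.7 ± 1.53 FPKM in sham and 13.8 ± 1.44 FPKM in DAC animals (SD, n = 3).

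Of the antiviral products, the paired GTPases MX2 and MX1 differed from each other. They are neighbours on chromosome 13, MX2 (ENSSSCG00000012076) from 204798630 to 204831957 and MX1 (ENSSSCG00000012077) from 204843754 to 204868922, on the same strand and without overlap. MX2 was at 4.40, 4.25 and 8.97 FPKM in sham replicates 1 to 3 and at 2.72, 2.36 and 3.92 FPKM in DAC replicates 4 to 6. All DAC values were under all sham values, and sham replicate 3 stood far above the other sham animals. The sham mean was 5.87 ± 2.68 FPKM and the DAC mean 3.00 ± 0.815 FPKM (SD, n = 3 each). MX2 was a DEG at -0.73 on the log2 scale (standard error 0.27, P = 0.0308 and adjusted P = 0.561 from limma, exact two-sided permutation P = 0.10). Without sham replicate 3, the log2 fold change was -0.43 and MX2 was not a DEG. The call was also lost without DAC replicate 4 (-0.69) or DAC replicate 5 (-0.62), and with the variance of each gene on its own.

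MX1 was at 2.63, 3.12 and 2.92 FPKM in the sham samples and at 4.78, 3.13 and 3.86 FPKM in the DAC samples. All DAC values were above all sham values, by a small margin in DAC replicate 5. Its log2 fold change was 0.33 (standard error 0.15, 95% interval from -0.02 to 0.67, P = 0.0585 and adjusted P = 0.593 from limma, exact two-sided permutation P = 0.10). MX1 became a DEG with median scaling (0.35), quantile normalization (0.33), the mitochondrial transcripts removed (0.36) or sample weights (0.34), and without DAC replicate 5 (0.45). MX1 and MX2 were the only genes of the 8 whose groups did not overlap, a state found in 14.9% of all genes tested, in 6.01% with higher DAC values as in MX1 and in 8.91% with lower DAC values as in MX2.

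The ratio of MX1 to MX2 within an animal was examined after their values were seen. It was 0.598, 0.735 and 0.325 in sham replicates 1 to 3 and 1.76, 1.32 and 0.985 in DAC replicates 4 to 6. Every sham animal had less MX1 than MX2, and the DAC animals had more MX1 than MX2 or nearly as much. On the log2 scale the ratio was -0.94 in the sham group and 0.40 in the DAC group, a difference of 1.33. An exact permutation test was run, but its outcome was fixed in advance, because the pair was picked for opposite directions without overlap. Its result is therefore not used as support. The genes are related in sequence, and the treatment of reads that fit both is not given in the sources used here. The MX2 row also runs past the end of MX2 in RefSeq, at 204821612.

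ISG15 (ENSSSCG00000040575, chromosome 6 from 63363173 to 63364208) had the largest SD within groups of the 8 genes on the log2 scale. It was at 3.22, 3.17 and 2.14 FPKM in sham replicates 1 to 3 and at 1.58, 2.71 and 6.33 FPKM in DAC replicates 4 to 6. The DAC group held both the lowest and the highest value, which differed 4.01-fold. The log2 fold change of ISG15 was 0.11 (standard error 0.36, 95% interval from -0.73 to 0.96, adjusted P = 0.943 from limma). It was -0.30 without DAC replicate 6 and -0.02 without sham replicate 3. That SD was 0.57, larger than in 96.6% of the genes tested, where the median was 0.18.

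IFIT1 (ENSSSCG00000010452, chromosome 14 from 101214710 to 101249501) was at 4.30, 6.29 and 5.85 FPKM in the sham samples and at 3.18, 3.28 and 5.72 FPKM in the DAC samples. DAC replicates 4 and 5 lay under all sham animals, and DAC replicate 6 lay among them. For IFIT1 the log2 fold change was -0.38 (standard error 0.22, 95% interval from -0.89 to 0.13, adjusted P = 0.651 from limma). Without DAC replicate 6, it was -0.60 and IFIT1 was a DEG. The IFIT1 row covers 34792 bases. In RefSeq this stretch holds IFIT3, from 101214730 to 101225169, and then IFIT1, from 101237403 to 101249486. The value called IFIT1 may therefore hold reads of both genes, and no separate value was obtained for IFIT3. The LIPA row, a lysosomal lipase on the other strand, also covers the whole IFIT1 row, and LIPA was at 2.44 ± 0.113 FPKM in the sham group and 2.71 ± 0.889 FPKM in the DAC group (SD, n = 3).

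The flanking family members IFIT2 and IFIT5, which also bind RNA, were not DEGs. IFIT2 was at 4.50 ± 1.42 FPKM in the sham group and 4.12 ± 0.639 FPKM in the DAC group (SD, n = 3), a log2 fold change of -0.08 with a 95% interval from -0.56 to 0.41. IFIT5 was at 3.03 ± 0.476 and 2.99 ± 0.358 FPKM (SD, n = 3), a log2 fold change of -0.01 with a 95% interval from -0.32 to 0.29.

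RSAD2 (ENSSSCG00000008648, chromosome 3 from 128877186 to 128897847) was the least abundant of the 8 genes in the sham group. It was at 1.17, 1.48 and 1.24 FPKM in the sham samples and at 1.63, 1.2 and 2.05 FPKM in the DAC samples. DAC replicate 5 lay within the sham range and the other DAC animals above it. The log2 fold change of RSAD2 was 0.19 (standard error 0.15, 95% interval from -0.17 to 0.54, adjusted P = 0.739 from limma).

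**Figure D3:**
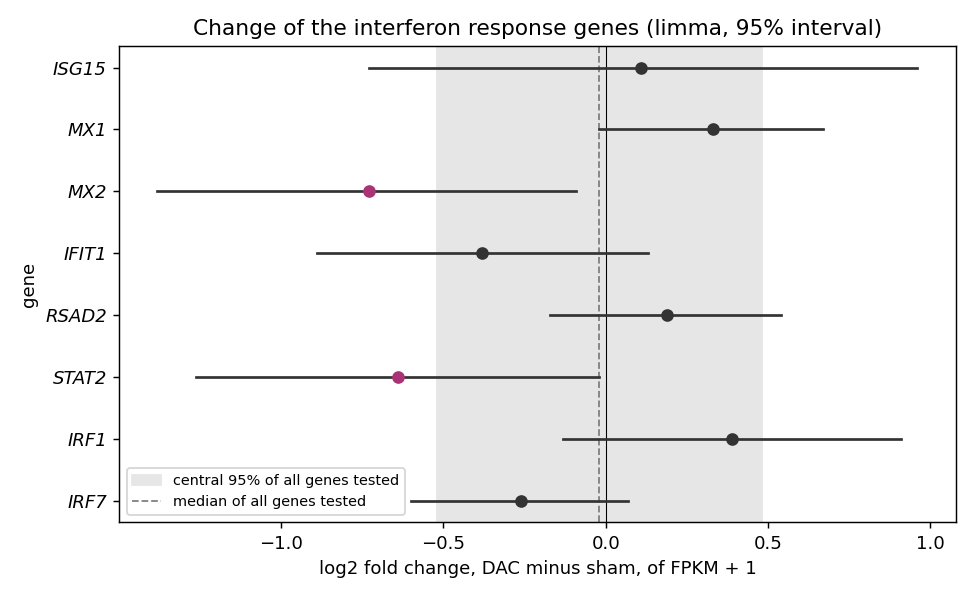
Log2 fold change of FPKM + 1 (horizontal axis, DAC minus sham) of each gene, with the 95% interval from limma as a line. Purple points have P under 0.05, the grey band holds the central 95% of all genes tested and the dashed line is their median. MX2 (-0.73) and STAT2 (-0.64) lie left of the band, and the intervals of the other 6 genes include 0.

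On the scale of FPKM, which is per length, the sham means ran from MX2 (5.87), IRF1 (5.71) and IFIT1 (5.48) through STAT2 (3.52), MX1 (2.89) and ISG15 (2.84) to IRF7 (1.95) and RSAD2 (1.30). Neighbours in that order had overlapping values, except that all RSAD2 values were under all IRF7 values. In the DAC group, IRF1 (7.87) came first and its values were above all those of IFIT1 (4.06). Then came MX1 (3.92), ISG15 (3.54), MX2 (3.00), STAT2 (1.84), RSAD2 (1.63) and IRF7 (1.45), each with values that overlapped those of the next. By the mean log2 level over all samples, the genes lay between the percentiles 8.51 (RSAD2) and 53.9 (IRF1) of the genes tested. The spread within groups was above the median of all genes in 7 of the 8 genes, at the percentiles 92.0 for MX2, 90.7 for STAT2, 84.6 for IRF1 and 84.0 for IFIT1, and IRF7 was at 46.6.

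Because the spread was wide, the identity of single animals mattered. DAC replicate 6 had the highest value of ISG15, RSAD2 and IRF1, and sham replicate 2 had the highest value of STAT2, IFIT1 and IRF7. None of the 8 genes was above its own mean in DAC replicate 5. The mean standardised level of the 8 genes was 0.66 in DAC replicate 6, 0.42 in sham replicate 2, 0.10 in sham replicate 3, -0.18 in DAC replicate 4, -0.27 in sham replicate 1 and -0.73 in DAC replicate 5. DAC replicates 6 and 5 thus stood at the ends, and DAC replicate 4 and the sham animals lay between them. HBB, the haemoglobin beta chain of red blood cells, was at 11, 38 and 11.3 FPKM in the sham samples and at 16.0, 5.86 and 37.6 FPKM in the DAC samples. The animal with the highest HBB in each group was also the one with the highest mean standardised level of the 8 genes. DAC replicate 5 was the lowest of all animals in both. MX1 and MX2 were highest in other animals, DAC replicate 4 and sham replicate 3. HBB and ALAS2 were the red blood cell markers with a row, of 5 named, and their sum was from 11.2 to 38.5 FPKM in the sham group and from 5.86 to 38.2 FPKM in the DAC group. The part of blood in these values was not tested. With sham replicate 2 and DAC replicate 6 both left out, an alternative chosen after seeing the data, 2 of the 8 genes were DEGs, MX2 (-1.05) and IFIT1 (-0.51), and STAT2 was not (-0.23).

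**Figure D4:**
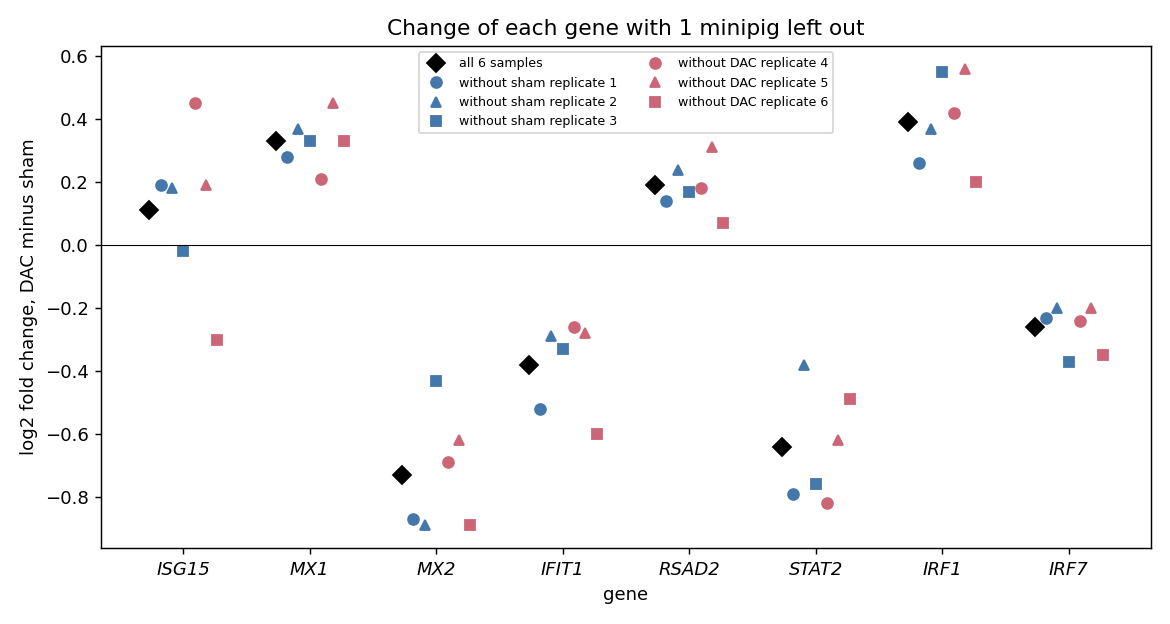
Log2 fold change (vertical axis, DAC minus sham) of each gene in all 6 samples (black) and with each minipig left out in turn (blue for a sham animal, red for a DAC animal, the symbol giving which). ISG15 changes sign, from 0.45 without DAC replicate 4 to -0.30 without DAC replicate 6, and the other 7 genes keep theirs.

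The calls depended on single animals. Without DAC replicate 5, the 2 DEGs among the 8 genes were MX1 and IRF1, both higher in the DAC group, in place of MX2 and STAT2. Without DAC replicate 6 they were MX2 and IFIT1, and without sham replicate 3 they were STAT2 and IRF7. Only without sham replicate 1 were they MX2 and STAT2 again. MX2 alone was a DEG without sham replicate 2, and STAT2 alone without DAC replicate 4.

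The rest of the interferon pathway was examined through lists written by role. No row of the table had any of 14 interferon symbols searched, and the table holds no gene whose highest sample is under 0.5 FPKM. Of 173 symbols searched in all lists, some of them older and newer names of the same gene, 115 had a row and 103 were tested. Among the 103, 7 were DEGs with a higher DAC mean, where 3.25% of all genes tested were such DEGs. DEGs with a lower mean numbered 2, where the share over all genes was 5.27%. In both directions the lists held 9 DEGs among 103 genes, which is about the 8.51% of all genes tested. The median log2 fold change of the 103 genes was 0.02. The limma adjusted P of the 9 DEGs was between 0.522 and 0.584, and in each of the 9 the groups did not overlap. Over the 103 genes, 16 had groups without overlap, about the 14.9% of all genes tested.

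Of 8 tested receptors and kinases, 1 was a DEG with a higher mean, where 3.25% of all genes tested were such DEGs. IFNAR2, the signalling chain of the type I receptor, rose from 2.41, 2.47 and 2.55 FPKM in the sham samples to 3.31, 3.07 and 3.11 FPKM in the DAC samples, without overlap. This was a log2 fold change of 0.26 ± 0.10 (standard error) with a limma adjusted P of 0.563, and leaving out any animal but DAC replicate 5 ended the call. Its partner IFNAR1 had a log2 fold change of -0.13 with a 95% interval from -0.46 to 0.20. Of 7 tested STAT and IRF factors outside the 8 genes, none was a DEG in limma at an unadjusted P under 0.05, and IRF5 came nearest (log2 fold change 0.33, adjusted P = 0.596). IRF9, the DNA-binding partner of STAT2, was not a DEG. It was at 2.48 ± 0.124 FPKM in sham and 2.01 ± 0.379 FPKM in DAC animals (SD, n = 3), a log2 fold change of -0.21 with a 95% interval from -0.51 to 0.08.

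Of 12 tested sensors and adaptors, TANK was a DEG with a higher mean and TICAM1 with a lower mean. Over all genes tested, the shares of such DEGs were 3.25% and 5.27%. TANK, which binds the kinase TBK1, was at 1.56, 1.59 and 1.49 FPKM in the sham samples and at 2.30, 2.14 and 1.80 FPKM in the DAC samples, a log2 fold change of 0.27. TICAM1, the adaptor of the double-stranded RNA receptor TLR3, was at 3.56, 3.12 and 3.47 FPKM in the sham samples and at 2.31, 1.39 and 3.02 FPKM in the DAC samples, a log2 fold change of -0.47. Both were among the least steady calls, since TANK was called in 6 and TICAM1 in 5 of 13 alternatives. None of the 4 tested genes that attach or remove ISG15 was a DEG in limma at an unadjusted P under 0.05. The activating enzyme UBA7 came nearest (log2 fold change 0.27, adjusted P = 0.618 from limma), with all DAC values above all sham values.

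Among 39 tested antiviral effectors, 2 were DEGs, both with a higher mean, where 3.25% of all genes tested were such DEGs. The median log2 fold change of the 39 was 0.03. EPSTI1 was at 2, 1.86 and 1.38 FPKM in the sham samples and at 2.29, 2.83 and 2.32 FPKM in the DAC samples, a log2 fold change of 0.34. EPSTI1 kept its call in 7 of 13 alternatives. TRIM34 was at 0.685, 0.892 and 0.947 FPKM in the sham samples and at 1.18, 1.67 and 1.46 FPKM in the DAC samples, a log2 fold change of 0.40. TRIM34 passed the filter only through the group where it is high, as its sham values were all under 1 FPKM, so its call is a description. Without it, 1 of 38 antiviral effectors was a DEG, and 6 of 102 genes of all lists were DEGs with a higher mean.

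Of 12 tested genes of class I antigen presentation, the mean was higher in DAC animals in 9. Over all genes tested, 53.4% had a lower DAC mean. The median log2 fold change of the 12 was 0.12. A DEG with a higher mean was 1 of them, where 3.25% of all genes tested were such DEGs. SLA-1, SLA-2, SLA-3, SLA-6, SLA-7, SLA-8 and TAPBP, also searched for this list, had no row. PSME2, a subunit of the interferon-induced proteasome activator, was at 17.1, 16.3 and 17.0 FPKM in the sham samples and at 21.2, 22.6 and 19.4 FPKM in the DAC samples. On the log2 scale PSME2 was higher by 0.31 ± 0.10 (standard error) with a limma adjusted P of 0.522. The rows of RNF31 and PSME1 both cover PSME2 on the other strand. Of 8 tested chemokines and GTPases, CCL2, which attracts monocytes, was a DEG with a higher mean. Of all genes tested, 3.25% were such DEGs. CCL2 was at 8.32, 7.11 and 8.12 FPKM in the sham samples and at 19.8, 8.84 and 18.6 FPKM in the DAC samples. DAC replicate 5 was close to the sham animals and the other DAC animals were far above them. On the log2 scale CCL2 was higher by 0.85 ± 0.28 (standard error) with a limma adjusted P of 0.522, the largest change among the 9 DEGs of these lists. CCL2 was not a DEG without sham replicate 2, DAC replicate 4 or DAC replicate 6, or with the variance of each gene on its own.

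Of 13 tested brakes on the pathway, PTPN6 was a DEG with a higher mean and SOCS1 with a lower mean. Of all genes tested, 3.25% and 5.27% were such DEGs. PTPN6 (SHP-1), a phosphatase that acts on receptor signalling in leukocytes, was at 2.44, 2.66 and 3.10 FPKM in the sham samples and at 3.38, 4.16 and 4.17 FPKM in the DAC samples, a log2 fold change of 0.39. The rows of ATN1 and C12orf57 overlap that of PTPN6 on the same strand. SOCS1, which interferons induce and which inhibits JAK kinases, was at 1.91, 2.38 and 1.59 FPKM in the sham samples and at 1.22, 1.37 and 1.34 FPKM in the DAC samples. For SOCS1 the log2 fold change was -0.35 ± 0.13 (standard error) with a limma adjusted P of 0.564, and it kept its call in 8 of 13 alternatives. No DEG of these lists changed sign in the alternatives, and PTPN6 lost its call in 1 of 13 and PSME2 in 2 of 14. TRIM34 could be tested in 10, none of which left out a DAC animal, and lost its call in 1.

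**Figure D5:**
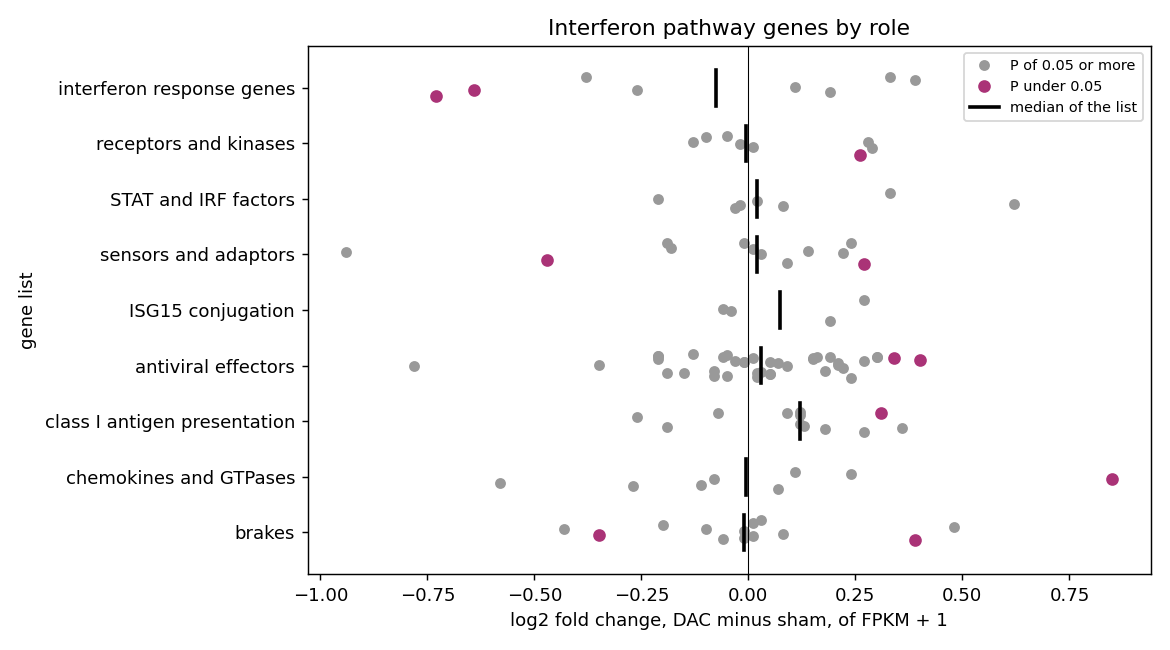
Log2 fold change (horizontal axis, DAC minus sham) of each tested gene, grouped by role (vertical axis, points spread for clarity). Purple points have P under 0.05 and black bars are list medians, which lie between -0.07 for the 8 interferon response genes at the top and 0.12 for class I antigen presentation.

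The same animal that was highest for ISG15 was highest for many of these genes. DAC replicate 6 held the highest value in 34 of the 103 genes, 33.0%, whereas it held the highest value in 17.6% of all genes tested. It held the lowest value in 4 of the 103 genes, 3.88%, against 12.4% of all genes tested. Among them, chosen after their values were seen, were PSMB9 of the immunoproteasome and CXCL9, a chemokine induced by type II interferon. PSMB9 was at 5.31 FPKM in DAC replicate 6 and between 1.97 and 2.63 FPKM in the other 5 animals. CXCL9 was at 2.83 FPKM there and between 0.637 and 1.61 FPKM in the others.

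Interferon genes are expressed by several cell types, and in bulk tissue fewer cells of a type and less RNA per cell cannot be told apart. Of 17 leukocyte markers, 11 had a row and 9 were tested. CD163, a macrophage marker, was a DEG with a lower mean (log2 fold change -0.43, adjusted P = 0.508 from limma), and none was a DEG with a higher mean. Of all genes tested, 5.27% were DEGs with a lower mean. The leukocyte markers did not move one way, as the DAC mean was higher in 5 of the 9 and lower in 4. Their median log2 fold change was 0.04. Of the leukocyte markers, the summed level was from 56.2 to 59.5 FPKM in the sham group and from 47.5 to 64.6 FPKM in the DAC group, and the T cell marker CD3E was under 1 FPKM in every sample. Of 7 endothelial markers, VWF and CLDN5 were DEGs with a lower mean (5.27% of all genes tested) and KDR with a higher mean (3.25%). The summed level of the 7 was from 115 to 167 FPKM in the sham group and from 108 to 155 FPKM in the DAC group. Of 6 markers of smooth muscle cells and pericytes, all had a higher mean, whereas 53.4% of all genes tested had a lower one. Only CNN1 was a DEG (log2 fold change 0.60, adjusted P = 0.553 from limma), and its groups overlapped. DEGs with a higher mean were 3.25% of all genes tested. The other markers changed by between 0.03 (RGS5) and 0.23 (TAGLN). The summed level of the 6 was from 126 to 143 FPKM in the sham group and from 139 to 160 FPKM in the DAC group. Of the markers of plasmacytoid dendritic cells, the main producers of type I interferon, TCF4 and IRF8 had a row and CLEC4C, LILRA4 and SPIB did not. Of 7 fibroblast markers, 4 were DEGs, all with a higher mean, where 3.25% of all genes tested were such DEGs, and their summed level was from 479 to 553 FPKM in the sham group and from 683 to 776 FPKM in the DAC group. The part of these cell types in the values of the interferon genes was not tested.

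The mean profile of the 8 interferon genes over the 6 samples was itself standardised before other genes were set against it. The 5 genes whose standardised level lay nearest to that profile were ZSCAN20, EHD1, BZW1, ARHGEF40 and RHOC. Their root mean square distance from that profile was between 0.11 and 0.17 SD over 6 samples, while the 8 genes themselves lay between 0.53 (IFIT1) and 1.17 (MX1 and STAT2). The 5 were picked as the nearest of all other genes tested, so their smaller distance follows from the choice and is a description only. None of the 5 belongs to the role lists. EHD1, a regulator of endosome recycling, was at 14.1, 20.1 and 15.5 FPKM in the sham samples and at 14.4, 10.7 and 21.0 FPKM in the DAC samples.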

How the data were processed

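The authors deposited one table of FPKM for the ventricular myocardium of 3 sham and 3 DAC minipigs, with 1 animal per column. Library preparation used a NEBNext Ultra kit, and reads were paired-end reads from an Illumina HiSeq. The submitters' processing notes name HISAT2 and the build susScr11, with no version. The quantification program, the annotation release and the handling of shared reads are not given in the sources used here. FPKM summed to between 281377 and 308771 in each sample. FPKM does not give read numbers, and no steps of whole reads were seen (at most 6 genes shared a log2 ratio between samples), so depth and counting error are unknown.

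Symbols came from the table, and 520 rows without one took it from a table of gene identifiers. Positions were compared with RefSeq (Sscrofa11.1). Log2(FPKM + 1) was compared with limma 3.58.1 (R 4.3.3), with a variance trend, for genes that reached 1 FPKM in 3 or more samples. Figures used Python 3.11.15 and matplotlib 3.10.9. On simulated data of 11029 genes for this comparison, 195 of 200 genes with a log2 change of 1 were called. The 8 genes changed by less than this, from -0.73 (MX2) to 0.39 (IRF1), so this rate does not hold for them. The genes and lists were chosen with earlier results of these data known, so lists are given by counts and medians with no test. Named were the 8 genes, every DEG of each role list or else its gene of smallest P, and the 5 nearest profiles. IFNAR1, IRF9, IFIT2, IFIT5, PSMB9, CXCL9 and the genes whose rows overlap those of named genes were added after their values were seen, as were those of the closing section. The alternatives tried were testing every gene, a minimum of 5 FPKM, a pseudocount of 0.1, median scaling, quantile normalization, mitochondrially encoded genes left out, unmoderated variance, sample weights and each animal left out. A summed STAT2 and PAN2 row and the removal of both HBB-high animals were added after seeing the data.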

Additional observations from a re-analysis of the deposited data

How the results depend on the processing

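The number of DEGs among the 8 interferon genes was 2 in all samples, 0 of 2 genes tested with a minimum of 5 FPKM (fewer genes tested), 0 with the variance of each gene on its own, 3 with quantile normalization or sample weights (MX1 higher, MX2 and STAT2 lower), and between 1 and 2 with 1 animal left out. With median scaling and with mitochondrial transcripts removed it was 2, MX1 higher and MX2 lower. With 1 animal left out, the median log2 fold change of the 8 genes was between -0.32, without DAC replicate 6, and -0.01. The other pathway genes gave 9 DEGs, 2 of 46 with a minimum of 5 FPKM, and between 3 (without sham replicate 2) and 14 (without DAC replicate 6) with 1 animal left out. All genes gave 939 DEGs, and between 595 (without sham replicate 1) and 1019 then. ISG15 ranged from -0.30, without DAC replicate 6, to 0.45, without DAC replicate 4, and was also under 0 when sham replicate 3 (-0.02) or both HBB-high animals (-0.24) were left out. The other 7 genes kept their direction in every alternative run. The cause of these changes was not tested. No paired analysis was possible because the labels number the animals 1 to 6 and the groups share no number. Read depth is unknown, and with 3 animals a group the 95% interval of a gene as variable as ISG15 spans changes from -0.73 to 0.96 on the log2 scale.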

Other observations

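The genes below were picked after the table was seen. ISG12(A), CH25H and IFI30 are linked to interferon by name or textbook knowledge and stand in none of the lists under these symbols. ISG12 is also a name of IFI27, which was searched as an antiviral effector and had no row under that symbol. The ISG12(A) row is therefore not in the counts of the lists. ISG12(A), an interferon-induced mitochondrial protein gene, was at 3.40, 3.02 and 6.16 FPKM in sham replicates 1 to 3 and at 2.03, 3.07 and 3.49 FPKM in DAC replicates 4 to 6. Sham replicate 3 was highest, as for MX2, and the groups overlapped (log2 fold change -0.40, 95% interval from -0.99 to 0.19, adjusted P = 0.675 from limma). CH25H, which makes the antiviral sterol 25-hydroxycholesterol, was at 1.55 ± 0.414 FPKM in the sham group and 1.13 ± 0.388 FPKM in the DAC group (SD, n = 3). IFI30, a lysosomal thiol reductase induced by type II interferon, was at 2.34 ± 0.894 and 3.56 ± 1.95 FPKM (SD, n = 3), with its highest value, 5.65 FPKM, in DAC replicate 5, the animal with the lowest mean level of the 8 interferon genes. IRF8, a factor of myeloid cells that does stand in the lists, was at 12.2, 18.9 and 29.2 FPKM in the sham samples and at 86.9, 17.2 and 16.9 FPKM in the DAC samples, so that DAC replicate 4 alone stood apart.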
